A study of Homo sapiens with 6 samples.

Results

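The Kruppel-like factors (KLFs) KLF2, KLF3, KLF4, KLF5, KLF6, KLF7, KLF9, KLF10, KLF11 and KLF13 were examined in HT-1080 cells, a human fibrosarcoma line that grows as adherent mesenchymal tumour cells. The 10 members were taken by gene name from the deposited tables, and all 10 were found among the 26286 genes listed in either table. RNA was sequenced after 48 h with 1 of 3 treatments. The control cells received the vehicle DMSO. A second group was given palbociclib at 2 µM, which blocks the cell cycle kinases CDK4 and CDK6. A further group was given pimasertib at 500 nM, which blocks MEK1 and MEK2, the kinases upstream of ERK. All 6 libraries, 2 for each treatment, came from this single cell line.

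KLFs are zinc finger transcription factors that bind GC-rich and CACCC elements through 3 similar fingers at their C terminus, as do the related SP factors. KLF2, KLF4, KLF5, KLF6 and KLF7 are mostly described as activators. KLF3 is a repressor that recruits CTBP corepressors, and KLF9, KLF10, KLF11 and KLF13 carry a domain that recruits the SIN3A corepressor. Several KLF genes are immediate or early responders to outside signals. KLF2 is induced through the MAP kinase ERK5 and MEF2 factors, KLF9 by glucocorticoid and other nuclear receptors, and KLF10 and KLF11 by TGF-beta. In fibroblast-like and tumour cells, members of the family are known for setting proliferation, differentiation and matrix gene programmes.

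Library totals lay between 13607490 and 17500655 counts, so that a count of 3 corresponded to 0.168 to 0.220 CPM, a count scaled to the library total after TMM, a factor that corrects for library composition. Summed over the 10 members, a library held 6540 to 8868 counts. Mitochondrially encoded genes took 3.21% and 5.67% of DMSO counts, 4.57% and 6.31% of palbociclib counts, and 4.25% and 8.76% of pimasertib counts. None of the 13 mitochondrial genes passed the test of either drug against DMSO, in which 0 and 2 of them reached an unadjusted p under 0.05, and DESeq2 called 0 and 1. VIM, which encodes the mesenchymal filament vimentin, had 7912 to 18578 counts. The epithelial markers EPCAM and CDH1 had 0 to 5 counts, the endothelial markers CDH5 and VWF 0 to 5, and the 8 leukocyte markers together 0.388 to 1.04 CPM. TIE1, on the endothelial list, was at 2143 to 6083 counts, and KRT8 and KRT18, on the epithelial list, were expressed as well. In pimasertib 4 of 6 tested mesenchymal markers rose (2 without DMSO replicate 1 or either pimasertib library). Of 3 tested epithelial markers, KRT8 rose (not without pimasertib replicate 1) and KRT18 fell (not without pimasertib replicate 2). None of these markers, nor the 2 tested endothelial markers, passed in palbociclib, where 3 mesenchymal, 0 epithelial and 1 endothelial marker had an unadjusted p under 0.05, and their part in the KLF values was not tested. The labels do not say that the libraries of a group came from separate cultures. The p-values therefore reflect only how far the deposited libraries of a group differ, which could be technical. In bulk RNA, fewer cells of a kind and less RNA per cell cannot be told apart.

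In DMSO, KLF6 was the most abundant member per unit of gene length. KLF6, an activator first described in growth control and wound repair, was at 62.4 and 53.2 FPKM (reads per kilobase of gene scaled to the library total, as the authors deposited them). KLF2 followed at 24.7 and 20.6 FPKM and KLF10 at 8.40 and 8.79 FPKM. KLF3 was at 6.02 and 5.01 FPKM. None of these 4 genes overlapped the gene next to it in the order. The higher KLF5 library lay above the lower KLF3 library, however, so KLF3 and KLF5 were not resolved. KLF7 at 4.94 and 4.48, KLF5 at 5.40 and 3.19, and KLF9 at 3.47 and 4.60 FPKM overlapped in sequence and their order was not resolved. KLF13, KLF11 and KLF4 came last by mean, at 3.23, 2.18 and 0.284 FPKM. The lower KLF5 library, at 3.19, lay below the higher KLF13 library, at 3.41 FPKM. Among 14485 protein-coding genes detected in DMSO, the mean FPKM of KLF6 exceeded that of 93.2%, KLF2 that of 80.7%, KLF10 that of 59.4% and KLF4 that of 19.4%.

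The make-up of the family differed most in the pimasertib libraries. KLF6 held 46.5% to 51.4% of the family's summed FPKM in all 6 libraries. The share of KLF2 was 18.7% to 20.4% in the DMSO and palbociclib libraries and 8.96% and 8.40% in the pimasertib libraries. KLF9 held 2.85% and 4.38% of the DMSO sums, 5.16% and 6.71% of the palbociclib sums, and 9.75% and 8.72% of the pimasertib sums. In pimasertib, KLF9 had the second highest mean per length, 8.96 FPKM, and KLF2 the third, 8.40 FPKM, though the libraries of these neighbours overlapped, as did those of KLF2 with KLF3, KLF3 with KLF10 and KLF10 with KLF7. KLF5 stood ninth there. In palbociclib the order was that of DMSO except that KLF9 stood ahead of KLF7 and KLF5. The palbociclib libraries of KLF3 with KLF9 and of KLF9 with KLF7 overlapped, and KLF7, KLF5 and KLF9 were not resolved in DMSO. Summed over the members, the DMSO libraries reached 121.4 and 105.1 FPKM, the palbociclib libraries 112.2 and 118.3, and the pimasertib libraries 105.7 and 87.3, and the DMSO and pimasertib ranges overlapped.

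**Figure D1:**
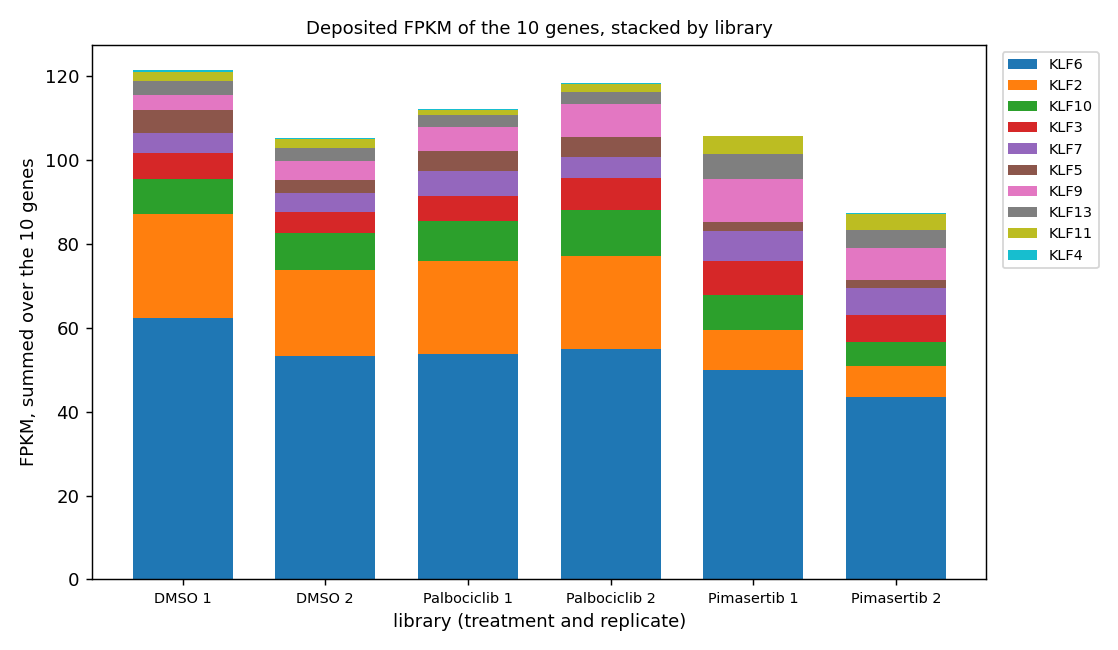
Deposited FPKM of the 10 KLF members stacked for each of the 6 libraries, with the vertical axis in FPKM and starting at 0. KLF6 makes up 46.5% to 51.4% of each stack, and the KLF2 segment is 8.96% and 8.40% in the pimasertib libraries against 18.7% to 20.4% in the other 4.

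In pimasertib, KLF2 was 2.76-fold and KLF5 2.25-fold lower than in DMSO, and KLF9 was 2.17-fold higher. Of the 10 members, 2 fell and 1 rose at an adjusted p under 0.05 in the edgeR quasi-likelihood test, which was fitted over 14839 genes with Benjamini-Hochberg adjustment. Across all tested genes 22.8% passed this threshold against DMSO, 11.7% lower and 11.1% higher, so 3 of 10 is near the background share. Fold changes below are given on the log2 scale with their SE, for 2 libraries per group. The median over the 10 members was 0.04, and 0.00 over all tested genes. In the authors' deposited table the same 3 members passed, with adjusted p-values of 1.5e-05 for KLF2, 0.0195 for KLF5 and 0.00157 for KLF9.

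KLF2, the flow- and ERK5-responsive activator that is known for endothelial and T cell quiescence, lies on chromosome 19 at 16435628 to 16438685 (GRCh37, plus strand, whole gene). Its level was 50.7 and 42.2 CPM in DMSO, 44.8 and 43.7 with palbociclib, and 18.7 and 14.99 with pimasertib. Both pimasertib libraries lay below the other 4. The log2 fold change in pimasertib was −1.46 ± 0.21 (adjusted p = 0.00113, edgeR), a 2.76-fold lower level, and −1.44 and −1.49 between the libraries of the same number. Leaving out each of the 6 libraries in turn kept the call, with adjusted p-values up to 0.0252.

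The stretch before the KLF2 start is shown because KLF2 was called in pimasertib against DMSO. It holds a MEF2 element, the kind of site named above for the ERK5 branch. It is 241 bases long, chr19:16324576-16324816 on the plus strand of GRCh38.p14, and was taken from RefSeq. It ends before the GENCODE start of the principal transcript, which lies 9 bases before the RefSeq start. Capitals mark GC boxes (GGGCGG on either strand) and the MEF2 element.
KLF2: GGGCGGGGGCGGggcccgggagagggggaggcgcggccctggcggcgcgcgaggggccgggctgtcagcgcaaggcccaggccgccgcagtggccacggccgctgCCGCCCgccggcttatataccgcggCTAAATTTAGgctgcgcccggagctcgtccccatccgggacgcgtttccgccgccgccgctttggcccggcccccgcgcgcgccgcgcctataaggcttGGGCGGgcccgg
It held 4 GC boxes and 1 MEF2 element, which begins 120 bases before the RefSeq start. Of all 35116 RefSeq windows from 250 bases before to 50 after a start, 201 or 0.572% held a MEF2 element, and 45% held a GC box. These are letter matches, and binding was not measured. MEF2 factors are already described for KLF2, so the match is no test of the ERK5 branch in these data.

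KLF5, an activator of epithelial proliferation and smooth muscle remodelling, lies on chromosome 13 at 73629114 to 73651676 (plus strand). It was at 19.5 and 11.6 CPM in DMSO, 16.2 and 16.9 with palbociclib, and 7.37 and 6.46 with pimasertib. Although the DMSO libraries were far apart, both pimasertib libraries were below all others. The log2 fold change was −1.17 ± 0.29 (adjusted p = 0.0169, edgeR), a 2.25-fold lower level. Without DMSO replicate 1, pimasertib replicate 1 or pimasertib replicate 2 the adjusted p was 0.191, 0.0748 and 0.138, so this call rests on those libraries.

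KLF9, a repressor known as a glucocorticoid and thyroid hormone target, lies on chromosome 9 at 72999503 to 73029540 (minus strand). Its level was 18.3 and 24.3 CPM in DMSO, 29.96 and 40.3 with palbociclib, and 52.3 and 40.0 with pimasertib. The DMSO libraries were the lowest, and the palbociclib and pimasertib ranges overlapped near 40 CPM. In pimasertib the log2 fold change was 1.12 ± 0.25 (adjusted p = 0.00987, edgeR), a 2.17-fold higher level, with 1.52 and 0.72 between libraries of the same number. The adjusted p was 0.0844 without pimasertib replicate 1, the higher of the pair.

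The stretch before the KLF9 start is shown by the same rule, and its base composition stands opposite to that of KLF2. It is 250 bases long, chr9:70414658-70414907 on the minus strand of GRCh38.p14, from RefSeq, and the capitals mark a forkhead core (TAAACA on either strand).
KLF9: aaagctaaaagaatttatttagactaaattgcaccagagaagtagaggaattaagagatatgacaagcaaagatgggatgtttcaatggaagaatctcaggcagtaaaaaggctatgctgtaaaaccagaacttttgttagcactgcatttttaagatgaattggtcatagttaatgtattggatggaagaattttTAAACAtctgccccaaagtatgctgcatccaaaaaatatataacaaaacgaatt
The full KLF9 window was 32.7% G and C, the lowest of the 13 windows that RefSeq gave for 8 members, whereas the KLF2 window at 80.7% was the highest. The median was 58.7% over all windows and 70% over those of the members. KLF9 had no GC box and 2 forkhead cores in its window, 1 of them in the stretch shown, and 12.3% of all windows held such a core. Of the 13 windows, 8 held a GC box and 7 a CACCC box (CACCC on either strand), which 59.9% of all windows held. The KLF5 window nearest to its principal transcript held 2 of each. KLF5 was called too, but its stretch was too short to show, as that transcript starts 213 bases before the RefSeq start. Among the other motifs searched on both strands, the E-box (CACGTG) was in 4 member windows, and the TATA box (TATAAA), the CArG element (in a KLF7 window) and the cyclic AMP response element TGACGTCA (in a KLF11 window) in 1 each, against 7.26%, 11.5%, 1.29% and 1.85% of all windows.

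**Figure D2:**
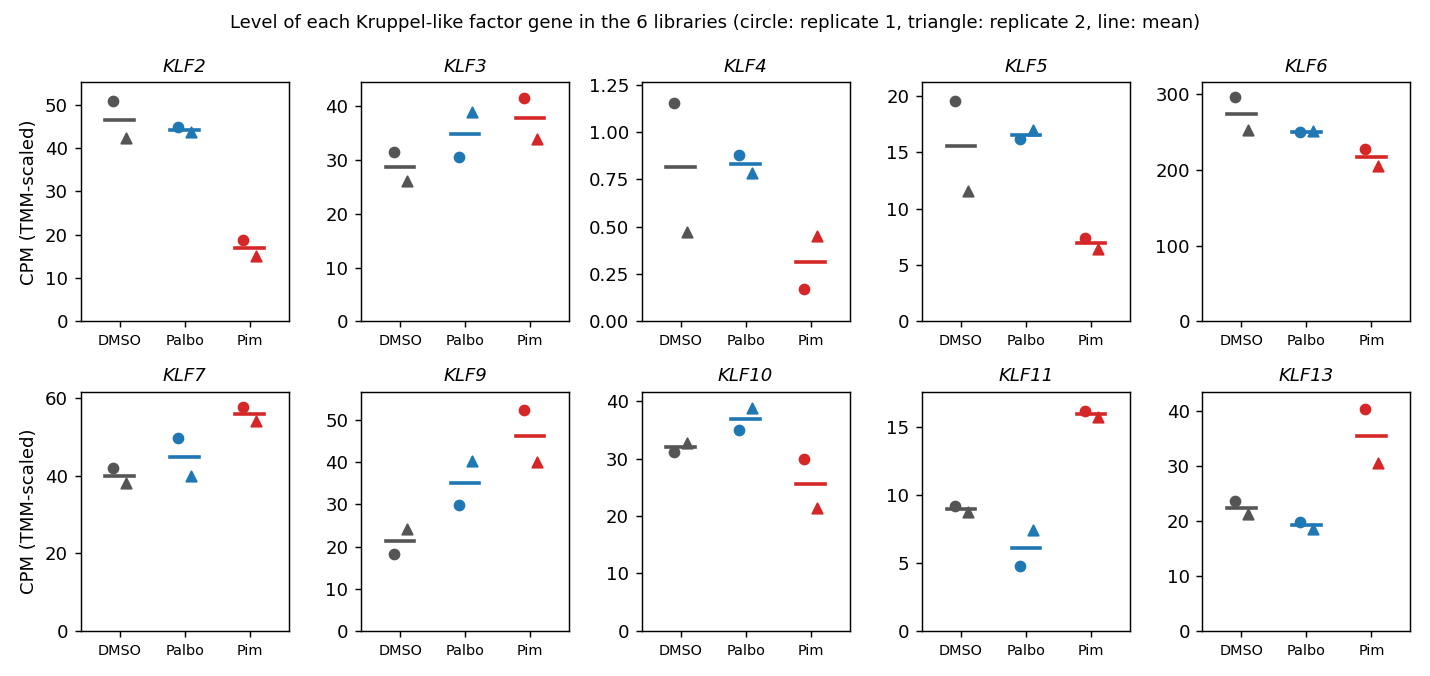
Level of each KLF member in the 6 libraries, as TMM-scaled CPM on an axis of its own that starts at 0, with a circle for replicate 1, a triangle for replicate 2 and a line at the mean of DMSO, palbociclib (Palbo) and pimasertib (Pim). KLF2 and KLF5 sit lowest in pimasertib, at 14.99 to 18.7 and 6.46 to 7.37 CPM, and KLF9 sits lowest in DMSO, at 18.3 and 24.3 CPM.

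KLF11 and KLF13, corepressor-recruiting members, were higher in both pimasertib libraries than in the other 4, but missed the threshold against DMSO by little. KLF11, a TGF-beta-inducible factor on chromosome 2 at 10182976 to 10194963 (plus strand), was at 9.16 and 8.71 CPM in DMSO, 4.76 and 7.38 with palbociclib, and 16.2 and 15.7 with pimasertib. Its log2 difference from DMSO was 0.83 ± 0.28 (adjusted p = 0.0525, edgeR). KLF13, a regulator of lymphocyte and heart genes on chromosome 15 at 31619058 to 31727868 (plus strand), was at 23.7 and 21.1 CPM in DMSO, 19.8 and 18.5 with palbociclib, and 40.3 and 30.5 with pimasertib. Its difference was 0.66 ± 0.22 (adjusted p = 0.0532). Both passed with size factors of the RLE method in place of TMM (0.0464 for KLF11 and 0.0460 for KLF13), and both missed with DESeq2 (0.0730 and 0.0675).

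The remaining members did not pass in pimasertib in the fit without a replicate block. KLF6, on chromosome 10 at 3818188 to 3827473 (minus strand), was at 296 and 252 CPM in DMSO, 249 and 251 with palbociclib, and 228 and 205 with pimasertib. Its log2 difference was −0.34 ± 0.22, with a 95% interval of −0.82 to 0.14. KLF7, an activator known from neuronal development, on chromosome 2 at 207938861 to 208031991 (minus strand), was at 42.0 and 38.1 CPM in DMSO, 49.7 and 40.0 with palbociclib, and 57.8 and 54.2 with pimasertib. Both pimasertib libraries were the highest, and the difference from DMSO was 0.48 ± 0.20 (adjusted p = 0.109, edgeR).

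KLF3, the CTBP-recruiting repressor on chromosome 4 at 38665817 to 38702663 (plus strand), was at 31.4 and 26.1 CPM in DMSO, 30.6 and 38.9 with palbociclib, and 41.5 and 33.9 with pimasertib. Its pimasertib libraries lay above DMSO and overlapped palbociclib, with a log2 difference from DMSO of 0.39 ± 0.22. KLF10, the TGF-beta-inducible early gene on chromosome 8 at 103661007 to 103668130 (minus strand), was at 31.3 and 32.7 CPM in DMSO, 34.9 and 38.8 with palbociclib, and 29.9 and 21.4 with pimasertib, with a difference of −0.32 ± 0.22. KLF4, a pluripotency and differentiation factor on chromosome 9 at 110247133 to 110252763 (minus strand), had few reads. The DMSO libraries held 19 and 7 counts, the palbociclib libraries 12 and 14, and the pimasertib libraries 3 and 7, and its 95% interval against DMSO ran from −3.38 to 0.62. With so few reads and 2 libraries per group, a change of KLF4 within this interval was not resolved. No source used here says if counting was strand-specific. Genes that overlap KLF3 and KLF7 in the tables had 0 to 5 counts.

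Counted by separation alone, 5 members were higher and 5 lower in both pimasertib libraries than in both DMSO libraries, where 31.6% and 32.6% of all tested genes were so separated, 64.2% in all. For KLF4 the gap was 0.452 against 0.473 CPM. At an unadjusted p under 0.05 there were 6 members, against 36.5% of all tested genes.

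In palbociclib no member passed the test. The edgeR count was 0 of 10, against 3.54% of all tested genes, 1.11% higher and 2.44% lower. DESeq2 called 0 as well, the authors' deposited table called 0 of the 9 members with an adjusted p, and 1 member, KLF9, had an unadjusted p under 0.05, as did 18.0% of all tested genes. KLF9 had a log2 difference of 0.73 ± 0.25 (adjusted p = 0.149, edgeR) and was 0.71 and 0.73 above DMSO in the libraries of the same number. KLF11 was at −0.55 ± 0.28 (adjusted p = 0.341), with both palbociclib libraries below both DMSO libraries.

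For the other members the palbociclib intervals bound the difference. KLF2 differed by −0.07 on the log2 scale (95% interval −0.53 to 0.39), KLF6 by −0.13 (−0.61 to 0.35) and KLF13 by −0.23 (−0.72 to 0.26). KLF3 differed by 0.28 (−0.21 to 0.77), KLF7 by 0.16 (−0.28 to 0.61) and KLF10 by 0.21 (−0.28 to 0.69). KLF5 differed by 0.09 (−0.53 to 0.71) and KLF4 by 0.02 (−1.83 to 1.87, the widest). Each of these intervals spans 0, so the direction was not resolved for any of these members. By separation of the libraries, 2 members were higher and 3 lower, against 23.5% and 23.3% of all tested genes, 46.8% in all. The members' median was 0.06 and that of all tested genes 0.00.

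**Figure D3:**
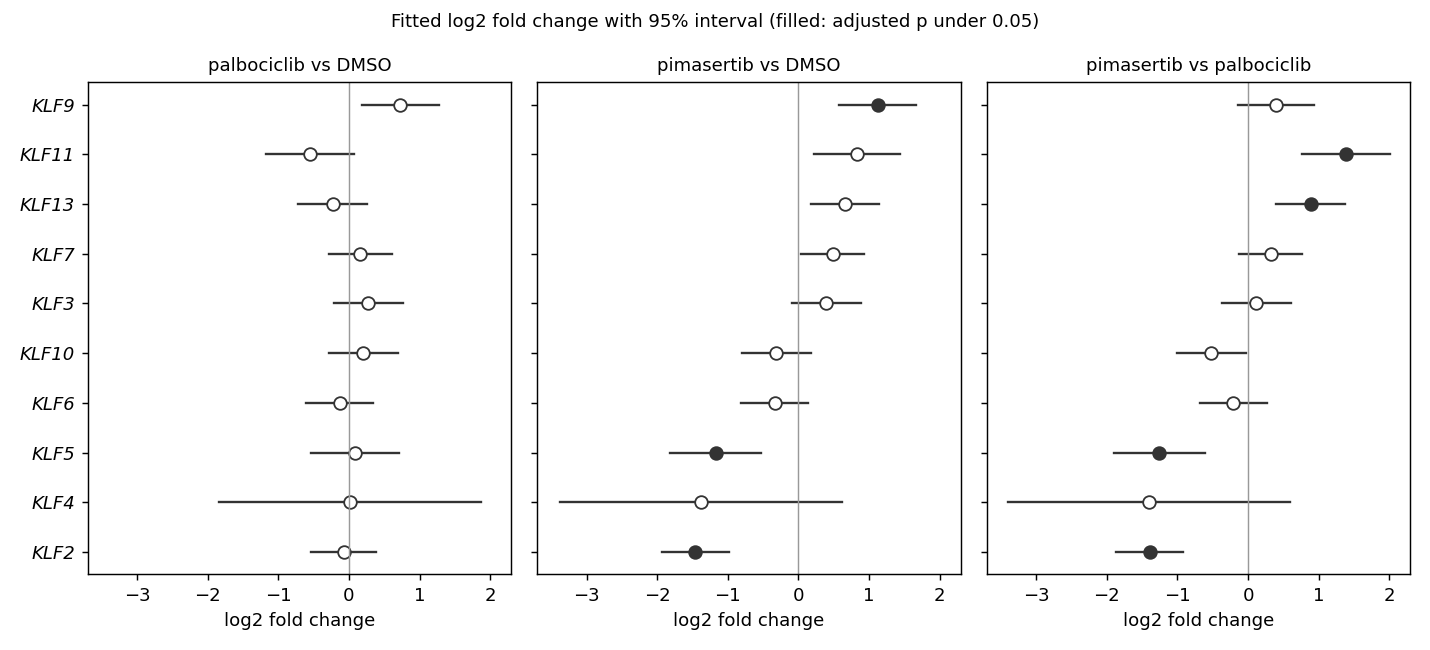
Log2 fold change of each KLF member in palbociclib against DMSO, pimasertib against DMSO and pimasertib against palbociclib, with bars for the 95% interval of the edgeR fit (2 libraries per group) and filled symbols where the adjusted p is under 0.05. In pimasertib against DMSO, KLF2 (−1.46) and KLF5 (−1.17) lie left of 0 and KLF9 (1.12) right of it, and no palbociclib symbol is filled.

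Setting the drugs directly against each other tested the difference between their responses. KLF2 and KLF5 were lower, and KLF11 and KLF13 higher, in pimasertib than in palbociclib. These 4 of 10 members passed against a background of 9.39% of all tested genes, 5.07% higher and 4.31% lower, and 5 members against 24.7% of genes had an unadjusted p under 0.05. The 2 drugs differ in target, and each was used at 1 dose. By separation of the libraries 3 members were higher and 5 lower, against 28.8% and 27.7% of all tested genes, 56.5% in all. The members' median was −0.05 and that of all genes 0.02.

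KLF2 had a log2 fold change of −1.39 ± 0.21 between the drugs (adjusted p = 0.00246, edgeR), a 2.63-fold lower level in pimasertib, and it passed whichever of the 6 libraries was left out. For KLF5 it was −1.26 ± 0.29 (adjusted p = 0.0219), and the adjusted p was 0.108 and 0.199 without pimasertib replicate 1 and 2. KLF11 was 2.62-fold higher in pimasertib, at 1.38 ± 0.28 (adjusted p = 0.0119). Without palbociclib replicate 1, pimasertib replicate 1 or pimasertib replicate 2, its adjusted p was 0.0632, 0.0865 and 0.0919. KLF13 was 1.85-fold higher, at 0.89 ± 0.22 (adjusted p = 0.0307), and passed in no fit without 1 of the 4 libraries compared, with adjusted p-values of 0.0796 and 0.0830 without palbociclib replicate 1 and 2 and 0.204 and 0.0642 without pimasertib replicate 1 and 2. The KLF9 difference between the drugs was 0.39 ± 0.24 (95% interval −0.14 to 0.93, adjusted p = 0.345), so a difference between the drugs was not shown for KLF9. The libraries of the same number gave 0.80 and −0.01.

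**Figure D4:**
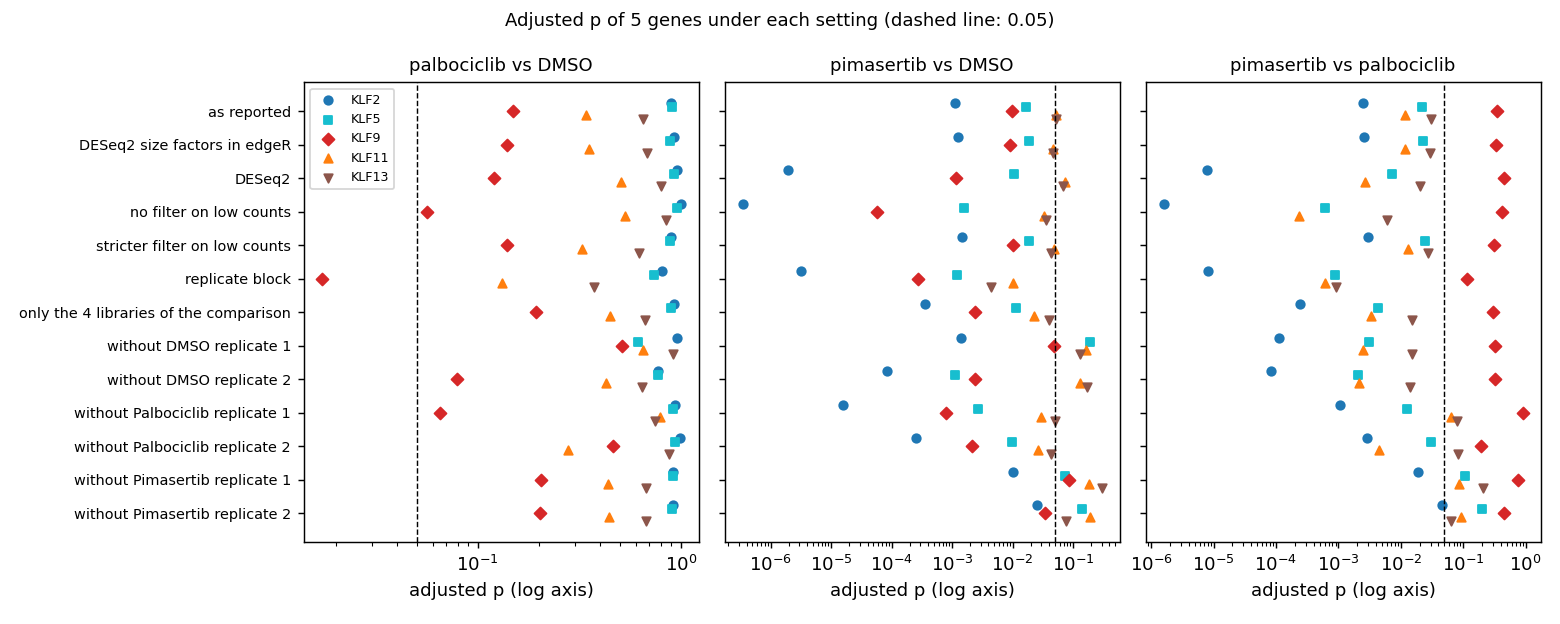
Adjusted p of KLF2, KLF5, KLF9, KLF11 and KLF13 on a log axis in the 3 comparisons, under the reported fit, 6 other settings and 6 fits that each left out 1 library, with a dashed line at 0.05. KLF2 lies left of the line in every row of the panels of pimasertib, where its highest values are 0.0252 against DMSO and 0.0461 against palbociclib, and KLF11 and KLF13 lie on either side of it against DMSO.

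The other KLF genes and the SP factors that could be tested were too few to compare with all tested genes. Of those, 22.8% passed in pimasertib against DMSO, 3.54% in palbociclib against DMSO and 9.39% between the drugs. Of 8 further KLF genes, 5 were in the tables and 3 passed the filter on low counts, and 0 of 3 were called in each comparison by edgeR, with 0, 1 and 1 at an unadjusted p under 0.05, and DESeq2 called 0 against DMSO in either drug. KLF12, a repressor close to KLF3, was at 41.0 and 29.2 CPM in DMSO, 43.4 and 34.0 with palbociclib, and 23.8 and 20.03 with pimasertib. Both pimasertib libraries were the lowest, with a log2 difference from DMSO of −0.68 ± 0.24 (adjusted p = 0.0663). KLF16, a repressor that was at 43.2 to 60.6 CPM, differed by −0.31 ± 0.20 (adjusted p = 0.283), and KLF17 had 2 to 15 counts. Of 5 tested SP factors, which share the KLF fingers and sites, 1 was higher in pimasertib. In palbociclib 0 were called by the reported edgeR fit and by DESeq2, and 1 had an unadjusted p under 0.05. Apart from leaving out 1 library, the other settings called up to 3 lower in palbociclib and up to 1 lower in pimasertib. SP6, an epidermal and tooth factor, was at 2.55 and 2.36 CPM in DMSO and 8.06 and 6.33 in pimasertib (log2 fold change 1.55 ± 0.44, adjusted p = 0.0304). It did not pass when any of these 4 libraries was left out, with adjusted p-values up to 0.170. SP1, SP2, SP3 and SP4, the broadly expressed GC box factors, differed from DMSO by −0.32 to −0.54 in pimasertib and by −0.41 to −0.65 in palbociclib, and none passed.

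Of 13 genes for KLF corepressors, coactivators and turnover, 1 rose and 1 fell in pimasertib. In palbociclib 0 were called, 2 had an unadjusted p under 0.05 and DESeq2 called 1. Across all tested genes 22.8% passed in pimasertib and 3.54% in palbociclib, so these counts are not above the background. FHL3, a LIM protein that binds KLF3, rose by 0.96 ± 0.21 on the log2 scale (adjusted p = 0.00950, edgeR), though not without pimasertib replicate 1 or 2 (adjusted p up to 0.0601). CTBP2, a corepressor partner of KLF3, fell by 0.77 (SE 0.21, adjusted p = 0.0240), though not without DMSO replicate 1, pimasertib replicate 1 or pimasertib replicate 2 (adjusted p up to 0.185). The ERK5 and MEF2 genes that act before KLF2 gave no call, but the list is too short to compare with those shares. Of 5, 0 passed in each drug, with 2 in palbociclib and 1 in pimasertib at an unadjusted p under 0.05, and DESeq2 called 0 in each. MAPK7, which encodes ERK5, differed by −0.55 ± 0.25 in pimasertib (adjusted p = 0.132).

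Genes reported elsewhere as KLF targets moved in both directions in pimasertib, where 11.1% of all tested genes rose and 11.7% fell. Of 12 tested, 4 rose and 2 fell, and 0 passed in palbociclib, where 5 had an unadjusted p under 0.05 and DESeq2 called 2. The median log2 difference was 0.53 in pimasertib and 0.42 in palbociclib, against 0.00 over all tested genes. Only 1 gene rose in pimasertib when any of the DMSO and pimasertib libraries was left out, and 1 fell without DMSO replicate 2 or either pimasertib library. TAGLN, a smooth muscle actin-binding protein, rose by 4.66 ± 0.41 (adjusted p = 7.49e-05, edgeR), from 2.12 and 3.85 CPM to 91.3 and 59.3 CPM. CCND1, which encodes cyclin D1, fell by 2.65 on the log2 scale (SE 0.34, adjusted p = 0.000575). S1PR1, a KLF2 target in lymphocytes and endothelium, rose by 0.79 ± 0.21 (adjusted p = 0.0215) while KLF2 itself fell, though S1PR1 did not pass when any of the 4 libraries compared was left out (adjusted p up to 0.129). CCL5, a chemokine regulated by KLF13 in T cells, had 0 counts in both DMSO libraries, 4 and 0 with palbociclib, and 11 and 18 with pimasertib. It is 1 of the 4 that rose. It passed the filter on low counts only through the pimasertib libraries, so its call was not independent of that filter.

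The gene groups tied to the signals that induce KLF genes were counted as well. For comparison, 22.8% of all tested genes passed in pimasertib and 3.54% in palbociclib. Of 7 glucocorticoid-response genes, 2 rose and 2 fell in pimasertib, and 1 rose and 1 fell in palbociclib. TSC22D3, a glucocorticoid-induced leucine zipper gene, rose by 2.51 ± 0.36 in pimasertib and by 2.14 ± 0.36 in palbociclib. In contrast, ERRFI1 fell by 2.67 (SE 0.23) and SGK1, a kinase gene, by 1.52 in pimasertib. FKBP5 fell by 1.46 (SE 0.31) in palbociclib. Of 10 TGF-beta early-response genes, 3 rose and 1 fell in pimasertib and 0 passed in palbociclib (2 at an unadjusted p under 0.05, 0 with DESeq2), with BAMBI, a TGF-beta pseudoreceptor gene, up by 2.86 ± 0.34 in pimasertib. Of 11 immediate-early genes, 2 rose and 2 fell in pimasertib and 1 fell in palbociclib, and JUNB, an AP-1 subunit gene, rose by 1.84 ± 0.23. The glucocorticoid genes that rose and the immediate-early genes that fell in pimasertib were 1 per group without DMSO replicate 1 or either pimasertib library. Without pimasertib replicate 2, 1 immediate-early gene rose and 0 TGF-beta genes fell. In palbociclib, 0 glucocorticoid and 0 immediate-early genes fell without DMSO replicate 1, palbociclib replicate 2 or either pimasertib library, and 2 immediate-early genes fell without palbociclib replicate 1.

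Outputs of ERK signalling fell broadly in pimasertib. Of 13 tested, 12 fell and 0 rose, with a median log2 difference of −2.65, and in palbociclib 1 fell, or 0 without palbociclib replicate 2 or either pimasertib library. DUSP4, an ERK pathway phosphatase gene, fell by 5.07 (SE 0.32) in pimasertib. Of 9 tested FOXO target genes, 6 rose and 1 fell in pimasertib, and 3 rose and 0 fell in palbociclib. Across all tested genes 11.1% rose in pimasertib and 1.11% in palbociclib. By sign alone, 8 of the 9 were higher in pimasertib and 6 in palbociclib. The number that rose depended on the library left out, becoming smaller in pimasertib and either smaller or larger in palbociclib. IRS2, the gene that fell, ran from −1.18 to −0.45 when 1 library was left out. TXNIP, a thioredoxin-binding protein gene, rose by 3.46 ± 0.39 in pimasertib and 2.58 ± 0.38 in palbociclib. Of 13 circadian clock genes, among whose outputs KLF9 and KLF10 are counted, 5 rose and 1 fell in pimasertib and 1 rose in palbociclib, and DBP, a clock output factor, rose by 2.44 ± 0.39 in pimasertib. In pimasertib only 1 to 2 clock genes rose when any of the DMSO and pimasertib libraries was left out, and 0 fell without DMSO replicate 1 or either pimasertib library. In palbociclib 0 rose without DMSO replicate 1, palbociclib replicate 2 or either pimasertib library, and 2 rose without DMSO replicate 2. All 10 proliferation genes fell in both drugs, with medians of −1.28 in pimasertib, where 5 passed without pimasertib replicate 2, and −1.86 in palbociclib. The part of these groups in the KLF changes was not tested.

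The genes whose pattern over the 6 libraries lay nearest to a called member were found by Euclidean distance of centred log2 CPM among 8933 protein-coding genes. Nearest to KLF2 were SASH1, at a distance of 0.0865, and ARHGDIB, at 0.170. SASH1 was at 84.9 and 69.8 CPM in DMSO, 70.2 and 71.0 with palbociclib, and 29.6 and 23.8 with pimasertib. Nearest to KLF9 were PARP3, at 0.206, and TCP11L2, at 0.234. For KLF5 the nearest were YRDC, at 0.372, and EPN2, at 0.388, which is farther than for the other called members.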

How the data were processed

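RNA was sequenced from 6 libraries of HT-1080 cells, 2 per treatment, made with random hexamer priming per the labels' protocols. Per the submitters' processing notes, the tools were STAR 2.5, HTSeq 0.6.1, CASAVA and DESeq2 on GRCh37, in an order that is not given. The authors deposited 1 table per drug with raw read counts per gene, FPKM values, and their comparison with DMSO. The deposited FPKM equal the count per gene length and library total, and were used to order members by level. Per the file headers, the log2 fold changes and the p-values are of the authors' own comparison, and only their adjusted p-values are quoted. The tables held 23914 and 24931 genes. DMSO counts were identical in both, and a gene absent from 1 table was counted 0 there.

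The read counts entered edgeR 4.0.16 (R 4.3.3) with filterByExpr (minimum count 10, minimum total 15; 14839 genes), TMM scaling and 1 quasi-likelihood model of 3 groups over 6 libraries. All tests were two-sided. Adjustment was by Benjamini-Hochberg over every tested gene, at a threshold of 0.05. Each SE was taken from the F statistic and the log2 fold change, and 95% intervals use the fit's degrees of freedom. CPM values are counts over TMM-scaled totals. Fits were tested on simulated counts. Alternatives were RLE scaling, DESeq2 1.42.0, no filter, a stricter filter of 1 CPM, a replicate block, a fit of the 4 libraries compared, and leaving out each library.

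The members and lists were chosen with earlier results of these data known. Named genes are the members, the tested KLF and SP genes, up to 3 called genes of each other list per comparison and direction by size, and for members called against DMSO the 2 nearest protein-coding genes with a mean of at least 10 CPM. MAPK7 is named besides, after its value was seen, as are the marker genes and CCL5's counts. The lists were other KLF genes, SP factors, KLF partners and turnover, the ERK5 and MEF2 branch, reported KLF targets, glucocorticoid, TGF-beta, immediate-early, ERK output, FOXO, circadian, proliferation and mitochondrial genes, and 4 sets of cell type markers. The RefSeq promoter table gave no window for KLF3, and that of KLF10 was not used here.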

Additional observations from a re-analysis of the deposited data

How the results depend on the processing

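With 2 libraries per group, only large changes could be called, and low members such as KLF4, which the stricter filter removed, could not be resolved. The direction and the side of the threshold held in 319 of 356 alternatives for single members. Most of these were of comparisons in which the member was not called, where an unchanged side says little. Each reported member call held in the 6 other settings, but only those of KLF2 held whichever library was left out. Calls against DMSO in palbociclib numbered 526 genes; they were 834 with DESeq2, 1097 with no filter, 2953 with the replicate block, 325 in the 4 libraries compared and 334 to 763 without 1 library (lowest without either pimasertib library), and higher genes were 31.2% of calls as reported, 39.7% with DESeq2, 47.2% with no filter, 43.5% with the block, 20% in the 4 libraries compared and 16.1% (without DMSO replicate 1) to 50.6% (without palbociclib replicate 1) without 1 library. Calls in pimasertib against DMSO numbered 3376, 6551 with the block and 1055 to 4084 without 1 library (lowest without pimasertib replicate 2, 1 and DMSO replicate 1, at 1055, 1576 and 1845). Between the drugs they numbered 1393, then 2256 with no filter, 4703 with the block and 456 to 1940 without 1 library (456 and 566 without pimasertib replicate 2 and 1). Members called in pimasertib against DMSO rose from 3 to 5 with RLE scaling, no filter, the stricter filter and the 4 libraries compared, as KLF11 and KLF13 passed (3 higher in each), and to 7 with the block (4 higher), which added KLF6 (lower, adjusted p = 0.0318) and KLF7 (higher, 0.00961) to KLF11 and KLF13 (0.0102 and 0.00435; edgeR). Between the drugs the block added KLF10 (lower, 0.0299). Against DMSO without 1 library, members called in pimasertib were 1 (pimasertib replicate 1) to 5 (palbociclib replicate 2), with 0 to 3 higher and 1 to 2 lower. Between the drugs members called without 1 library were 1 to 4, with 0 to 2 higher and 1 to 2 lower. The labels do not say that a replicate number marks a shared culture or day. Over 14839 genes the deviations of libraries with the same number correlated at 0.3975 for DMSO and palbociclib, 0.3511 for DMSO and pimasertib and 0.3448 for the drugs. With the replicate block, 1 member was called in palbociclib, KLF9, which was higher (adjusted p = 0.0170, edgeR). Reversals touched only comparisons in which the member concerned was not called. Without 1 library, the palbociclib differences ran from −0.20 to 0.069 for KLF2 (above 0 without DMSO replicate 1), −0.47 to 0.80 for KLF4 and −0.24 to 0.52 for KLF5 (below 0 without DMSO replicate 2), and −0.0012 to 0.34 for KLF7 (below 0 without palbociclib replicate 1). KLF4 was also at −0.06 without palbociclib replicate 1. Between the drugs KLF3 ran from −0.050 to 0.32, below 0 without replicate 1 of either drug. Beyond the arithmetic of fewer or more genes and libraries, the cause of these shifts was not tested.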
